A study of Mus musculus with 20 samples.

Results

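Vomeronasal receptor genes were followed in flow-sorted male germ cells of mice that lacked Tex15 or carried 1 working copy of it. The genes described here were selected on their counts: of 337 gene symbols that begin with Vmn1r or Vmn2r, 156 had raw counts that summed to 20 or more over the 6 libraries of embryonic day 18.5 (e18.5) or the 8 libraries of postnatal day 2 (d2). They were 82 of 211 Vmn1r symbols and 74 of 126 Vmn2r symbols. The sum was reached at e18.5 by 154 genes, at d2 by 33 and at both ages by 31. The sums run over both genotypes, so a gene can have entered through the genotype in which it was high. At the threshold, Vmn1r167, Vmn1r194, Vmn1r59 and Vmn2r111 held a sum of 20 and were kept, whereas Vmn1r170, Vmn1r71 and Vmn2r59 held 18 and were not.

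Vomeronasal receptors are G protein-coupled receptors by which sensory neurons of the vomeronasal organ, a chemical sense organ in the nose, detect pheromones and other social signals. Vmn1r receptors are known to respond to small molecules such as steroids and to work with the G protein subunit Gnai2. Vmn2r receptors have a large extracellular domain, respond to peptides and proteins and work with Gnao1. The genes stand in clusters on several chromosomes, with many close copies and pseudogenes among them.

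RNA sequencing covered 20 libraries in 6 groups: Tex15-/- (knockout) and Tex15+/- (heterozygous) cells at e16.5 and e18.5, with 3 libraries per group, and at d2, with 4 per group. Every group was male, of mixed strain background and sorted by green fluorescence. What drives the fluorescence is not given in the sources used here. Total RNA was amplified with Ovation kits. The series text speaks of triplicates, whereas d2 holds 4 libraries per genotype. Replicates are not tied to separate animals by the labels, and every p-value therefore reflects the spread among libraries, part of which may be technical.

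Total counts per library, in genes and repeat families together, ran from 14.3 M to 31.5 M, and counts in genes from 7.78 M to 14.2 M. Levels are CPM, that is, counts relative to the scaled total of gene counts of a library, with scaling within each age, and a floor of 3 counts in 1 library stood at 0.212 to 0.398 CPM. Tex15 lay at 3.23 to 4.84 CPM in knockout and 1590 to 1912 CPM in heterozygous libraries at e16.5, and at 1.75 to 4.54 CPM in knockout and 1312 to 1827 CPM in heterozygous libraries at e18.5. At d2 it lay at 2.07 to 2.62 CPM in knockout replicates 1, 3 and 4 and at 633 to 1027 CPM in heterozygous libraries. The library labelled Tex15ko-d2 replicate 2 held 104 CPM, so d2 results are given with and without it. The 10 germ cell markers, among them Ddx4 and Dazl, were all counted and summed to 4191 to 6612 CPM in knockout and 3865 to 6478 CPM in heterozygous libraries. In such bulk samples fewer cells of a type and less RNA per cell cannot be told apart.

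The regions around the starts of the receptor genes are shown first. RefSeq windows of 250 bases before to 50 bases after the gene start (build GRCm38.p6, whereas the authors counted on mm9) were found for 142 of the 156 genes, 143 windows in all. An ATG stood exactly at the annotated start in 121 of these 143 windows (84.6%), against 5.80% of all 32851 windows, so most windows end in coding sequence and do not mark a measured transcription start. The 5 windows printed here, all on the plus strand and written 5′ to 3′, belong to Vmn1r195 and Vmn2r96, which were higher in knockout cells at d2, to Vmn2r78, with the smallest p at e18.5, and to the neighbours Vmn2r112 and Vmn2r115. Capitals mark CG dinucleotides and the motifs TATAAA and TAATTA on either strand.
Vmn1r195 chr13:22278067-22278366: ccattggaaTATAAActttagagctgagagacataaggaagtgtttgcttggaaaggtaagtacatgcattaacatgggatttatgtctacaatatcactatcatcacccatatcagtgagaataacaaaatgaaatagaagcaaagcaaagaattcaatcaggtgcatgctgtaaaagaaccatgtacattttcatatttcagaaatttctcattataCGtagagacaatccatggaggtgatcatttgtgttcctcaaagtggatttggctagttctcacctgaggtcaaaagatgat
Vmn2r96 chr17:18581477-18581776: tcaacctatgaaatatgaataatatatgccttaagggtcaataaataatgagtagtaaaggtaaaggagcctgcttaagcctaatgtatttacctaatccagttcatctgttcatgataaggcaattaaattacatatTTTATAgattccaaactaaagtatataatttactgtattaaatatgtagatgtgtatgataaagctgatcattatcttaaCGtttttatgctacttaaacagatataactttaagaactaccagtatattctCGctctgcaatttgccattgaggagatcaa
Vmn2r78 chr7:86915099-86915398: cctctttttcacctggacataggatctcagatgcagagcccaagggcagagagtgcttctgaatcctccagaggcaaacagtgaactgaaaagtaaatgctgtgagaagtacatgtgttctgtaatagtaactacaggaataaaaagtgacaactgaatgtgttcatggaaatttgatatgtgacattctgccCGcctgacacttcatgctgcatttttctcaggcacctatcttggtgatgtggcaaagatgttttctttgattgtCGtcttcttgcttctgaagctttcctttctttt
Vmn2r112 chr17:22600898-22601197: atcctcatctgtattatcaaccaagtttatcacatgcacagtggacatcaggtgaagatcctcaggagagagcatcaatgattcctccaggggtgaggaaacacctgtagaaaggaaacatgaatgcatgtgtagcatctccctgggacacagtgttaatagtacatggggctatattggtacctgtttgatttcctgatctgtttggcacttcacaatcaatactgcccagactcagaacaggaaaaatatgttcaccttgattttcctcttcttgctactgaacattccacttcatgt
Vmn2r115 chr17:23343727-23344026: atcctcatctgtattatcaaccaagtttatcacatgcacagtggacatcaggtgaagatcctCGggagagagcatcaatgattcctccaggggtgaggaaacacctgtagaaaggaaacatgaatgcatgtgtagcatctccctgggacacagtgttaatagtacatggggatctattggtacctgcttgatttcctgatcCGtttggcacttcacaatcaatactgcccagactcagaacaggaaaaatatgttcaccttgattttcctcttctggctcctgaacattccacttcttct

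These windows were poor in CG: Vmn2r112 held 0 CG dinucleotides, Vmn1r195 held 1, and Vmn2r96, Vmn2r78 and Vmn2r115 held 2 each. The motif TATAAA was found in the windows of Vmn1r195 and, on the opposite strand, Vmn2r96. The windows of Vmn2r112, Vmn2r114, Vmn2r115 and Vmn2r116, neighbours on chromosome 17, were 97.0% to 99.3% identical to each other. Across all 143 windows the median GC content was 37.0%, against 52.7% for all promoters, and 47 windows (32.9%) held no CG, against 5.43% of all promoters. No CG was found in 11 of 24 windows (45.8%) of genes that passed the test at e18.5 and in 36 of 119 windows (30.3%) of the others. TATAAA stood on either strand in 37.1% of the members' windows and 13.6% of all promoters, and TAATTA in 14.7% and 5.29%. CANNTG stood in 85.3% and 72.3%, and CCCNNGGG in 4.20% and 13.7%. Matches of TATAAA and TAATTA can overlap in sequence, and a match is a count of letters only. An ATG stood at the annotated start in 84.6% of the members' windows and 5.8% of all. These shares therefore compare windows at unlike positions of a gene.

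Summed over all 337 symbols, the receptor genes overlapped between genotypes at e16.5, stood higher in every knockout library than in any heterozygous library at e18.5 and d2, and stood lower at d2 than at e18.5 in both genotypes. At e16.5 the sums were 116, 81.4 and 105 CPM in knockout libraries and 88.1, 111 and 146 CPM in heterozygous libraries, and these ranges overlapped. At e18.5 they were 341, 424 and 349 CPM in knockout libraries and 117, 150 and 208 CPM in heterozygous libraries. At d2 they were 66.2, 63.0, 74.4 and 67.4 CPM in knockout libraries and 38.3, 23.8, 32.6 and 47.6 CPM in heterozygous libraries. The ranges did not overlap at e18.5 or d2, with or without the library labelled Tex15ko-d2 replicate 2, which held 63.0 CPM. Both families were apart at e18.5: Vmn1r symbols summed to 162 ± 11.6 CPM in knockout and 63.3 ± 23.1 CPM in heterozygous libraries, and Vmn2r symbols to 209 ± 35.5 CPM in knockout and 94.7 ± 22.9 CPM in heterozygous libraries (SD, n = 3 each). At d2 the Vmn1r sums were apart, at 33.3 to 35.0 CPM in knockout and 9.83 to 17.5 CPM in heterozygous libraries, whereas the Vmn2r sums overlapped, at 28.3 to 39.4 CPM in knockout and up to 30.2 CPM in heterozygous libraries. The lowest knockout value, 28.3 CPM, was that of the library labelled Tex15ko-d2 replicate 2, and the other 3 lay at 32.8 CPM or more. Of the 156 members, 148 to 151 had at least 1 count in a knockout library and 113 to 136 in a heterozygous library at e18.5. At d2 these numbers were 50 to 67 in knockout and 33 to 50 in heterozygous libraries. No test was run on the sums, which cover all 337 symbols and were not selected on counts. Only the 156 members entered on their e18.5 and d2 counts.

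**Figure D1:**
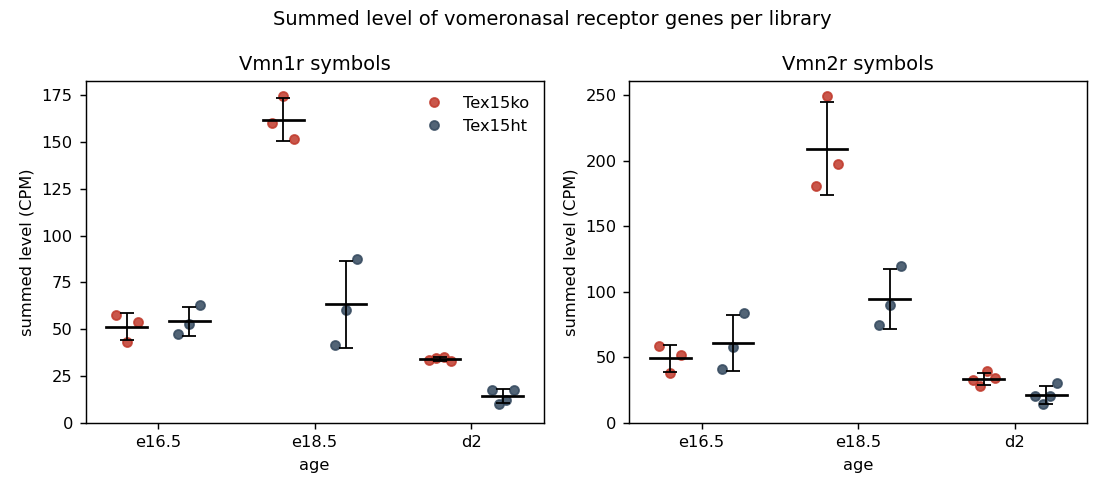
Summed level (CPM, vertical axis from 0) of the 211 Vmn1r symbols (left) and 126 Vmn2r symbols (right) per library (points), with the mean and SD (bars), by age, Tex15ko left of Tex15ht. Knockout and heterozygous libraries overlap at e16.5 in both families and are apart at e18.5, with Vmn1r sums of 152 to 174 CPM in knockout and 41.8 to 87.8 CPM in heterozygous libraries.

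The e16.5 comparison asks how the loss of Tex15 shifts these genes at the youngest age sampled. No member passed the test: 0 of 34 tested rose and 0 fell (edgeR's quasi-likelihood test, Benjamini-Hochberg adjusted p under 0.05), where 0% of all 16384 genes rose and 0.0061% fell. An unadjusted p under 0.05 was reached by 5 of the 34 in edgeR, of which 3 were higher and 2 lower, and by 7.73% of all 16384 genes. DESeq2 called 0 members. The median log2 fold change, knockout over heterozygous, was -0.09 over the 34 members and -0.01 over all genes. All 3 knockout libraries lay above all 3 heterozygous libraries for 8 of the 154 members with a count at e16.5 and below them for 8. Over all 22560 genes with a count the shares were 5.16% and 6.33%.

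Vmn1r195 had the highest mean level of all members over the 20 libraries, also per kilobase of coding length (8.49 CPM per kb). This rank pools all groups and does not hold in each, since heterozygous libraries held 0 to 0.234 CPM of it at d2. At e16.5 it stood at 9.94, 12.02 and 11.4 CPM in knockout and 9.60, 9.46 and 9.70 CPM in heterozygous libraries. Each knockout library was above each heterozygous one, by a narrow margin that did not pass the test (log2 fold change 0.21, SE 0.23, adjusted p = 0.805, edgeR). Vmn1r53, the next by level per length (6.36 CPM per kb), had 6.63, 7.07 and 5.20 CPM in knockout and 7.95, 12.4 and 6.94 CPM in heterozygous libraries at this age. The genotypes overlapped for this gene.

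At e18.5 25 vomeronasal receptor genes rose in knockout cells and none that was tested fell. Of the 87 members that passed the filter on low counts 25 rose and 62 did not pass the test, and those that rose were 12 of 37 tested Vmn1r and 13 of 50 tested Vmn2r genes. Over all 18075 genes tested, 2.06% rose and 0.271% fell. The other 69 members were too low to be tested. The median log2 fold change was 1.56 over the 87 tested members and -0.01 over all genes. Since members entered on the e18.5 sum and passed the filter more easily where knockout counts were high, these shares and medians describe the selected genes and are no measure of the whole family. Without the filter, 31 of 156 members rose and 0 fell, where 1.88% of all genes rose.

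How far the selection bears on this was read from the genotypes one by one. The sum of 20 was reached by the knockout libraries alone for 125 members and by the heterozygous libraries alone for 69. Entry of the 69 did not need the knockout counts, and 56 of them were tested, of which 9 rose and 0 fell. Passing the filter on low counts could still rest on knockout counts, so these calls are not free of the selection. The knockout mean was higher for 46 of the 69 and lower for 23. All knockout libraries lay above all heterozygous ones for 23 of the 69 and below them for 2. Over the 156 members, the knockout mean was higher for 126 and lower for 30. Every knockout library lay above every heterozygous library for 70 of them and below for 3. Over all 23033 genes with a count the shares were 8.93% and 6.53%. The 3 below, Vmn1r189, Vmn2r10 and Vmn2r124, did not pass the test and were singled out after their values were seen.

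**Figure D2:**
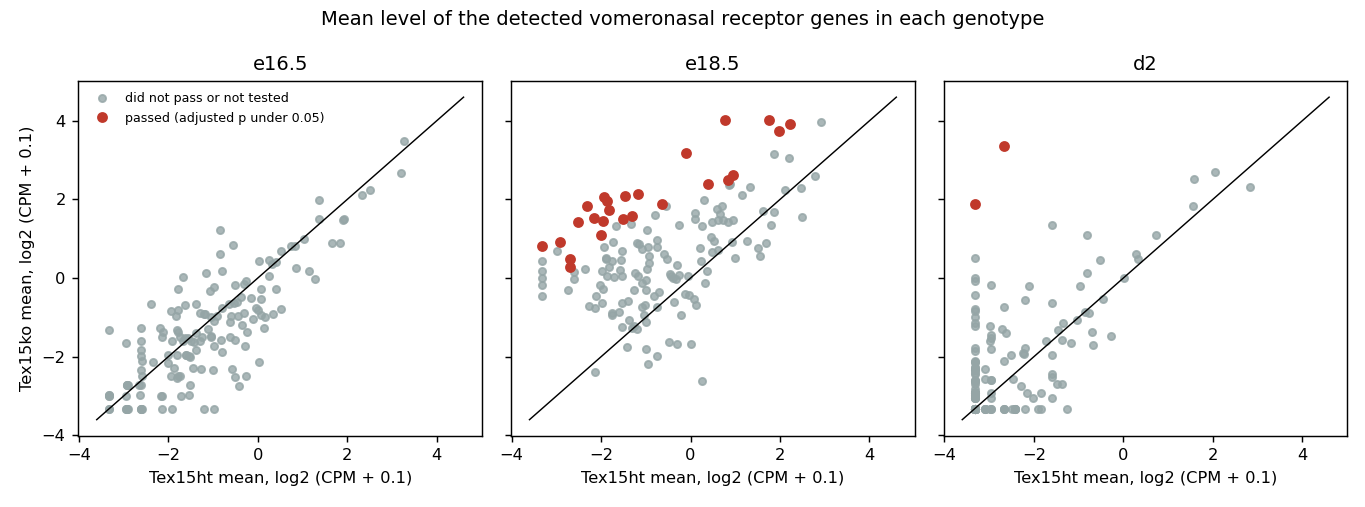
Mean level of each of the 156 genes in Tex15ko (vertical axis) against Tex15ht libraries (horizontal axis), both as log2 (CPM + 0.1), at e16.5, e18.5 and d2, where the line marks equal levels and red points passed the test. Most points lie above the line at e18.5, where 25 passed, and 2 passed at d2.

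Vmn2r78 had the smallest p. It measured 12.7, 21.0 and 14.8 CPM in knockout libraries and 0.566, 1.79 and 2.44 CPM in heterozygous libraries at e18.5. The groups did not overlap and the gene rose (log2 fold change 3.37, SE 0.41, adjusted p = 5.2e-05, edgeR). Vmn2r99 measured 8.67, 12.4 and 5.96 CPM in knockout and 0.991, 0.244 and 1.27 CPM in heterozygous libraries, again with no overlap (log2 fold change 3.43, SE 0.50, adjusted p = 0.000361, edgeR). Vmn1r195 stood at 17.6, 16.7 and 14.1 CPM in knockout and 1.20, 4.47 and 4.10 CPM in heterozygous libraries (log2 fold change 2.32, SE 0.38, adjusted p = 0.00102, edgeR). All 3 of its knockout libraries lay within a narrow range, while heterozygous replicate 1 was the lowest of its group.

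Vmn2r82, Vmn2r108 and Vmn1r14 had 0 to 0.425 CPM in each heterozygous library at this age. Vmn2r82 measured 2.67, 2.96 and 4.79 CPM in knockout and 0.142, 0.163 and 0 CPM in heterozygous libraries (log2 fold change 4.88, SE 0.80, adjusted p = 0.00102, edgeR). Vmn2r108 measured 2.00, 2.17 and 3.52 CPM in knockout and 0.142, 0.0813 and 0 CPM in heterozygous libraries (adjusted p = 0.00268, edgeR), a ratio of 31.3 with a 95% counting interval of 10.35 to 155, since the heterozygous group held 3 counts in all. Vmn1r14 measured 4.42, 3.26 and 3.61 CPM in knockout and 0.425, 0 and 0.0976 CPM in heterozygous libraries (log2 fold change 4.27, SE 0.78, adjusted p = 0.00312, edgeR). For each of these genes every knockout library was above every heterozygous library. Counting intervals cover counting error only.

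The other Vmn1r genes that rose at e18.5 were Vmn1r34, Vmn1r48, Vmn1r9, Vmn1r33, Vmn1r205, Vmn1r45, Vmn1r32, Vmn1r233, Vmn1r179 and Vmn1r88. Vmn1r48 had 57 counts in knockout and 0 in heterozygous libraries, which makes it at least 21.0-fold higher against a floor of 3 counts over the group. It shares 74.7% of the 50-base stretches of its longest transcript with other Vmn transcripts, Vmn1r47 above all, so its counts can hold reads of that copy. Vmn1r9, with 59 counts in knockout and 1 in heterozygous libraries, and Vmn1r88, with 37 in knockout and 2 in heterozygous libraries, had ratios of 65.2 (95% counting interval 11.3 to 2617) and 20.4 (5.27 to 175). Vmn1r32 and Vmn1r179 were already above 1 CPM in heterozygous cells: Vmn1r32 averaged 5.18 ± 1.17 CPM in knockout and 1.21 ± 0.517 CPM in heterozygous libraries (SD, n = 3 each; adjusted p = 0.0212, edgeR). Vmn1r179 averaged 5.48 ± 1.10 CPM in knockout and 1.68 ± 0.489 CPM in heterozygous libraries (SD, n = 3 each; adjusted p = 0.0460, edgeR).

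The other Vmn2r genes that rose were Vmn2r100, Vmn2r114, Vmn2r15, Vmn2r57, Vmn2r112, Vmn2r115, Vmn2r18, Vmn2r116 and Vmn2r19. Vmn2r116, the receptor of the tear pheromone ESP1, averaged 1.29 ± 0.350 CPM in knockout and 0.0542 ± 0.0939 CPM in heterozygous libraries (SD, n = 3 each; adjusted p = 0.0327, edgeR). Vmn2r115, a receptor of the juvenile pheromone ESP22, averaged 2.91 ± 0.943 CPM in knockout and 0.306 ± 0.200 CPM in heterozygous libraries (SD, n = 3 each; adjusted p = 0.0146, edgeR). Both pheromones are peptides secreted with tears. Vmn2r100 and Vmn2r57 were the most abundant of this group, at 14.96 ± 3.67 CPM in knockout and 4.55 ± 1.498 CPM in heterozygous libraries for Vmn2r100 and 13.2 ± 5.27 CPM in knockout and 3.84 ± 1.61 CPM in heterozygous libraries for Vmn2r57 (SD, n = 3 each). Their log2 fold changes were 1.73 and 1.77. The co-receptor genes Vmn2r1 to Vmn2r7, which are known to be made together with other Vmn2r receptors in the same neurons, gave 5 members of 7, of which 4 were tested and 0 rose or fell.

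Over the 25 genes that rose, log2 fold changes ran from 1.71 to 5.54 beside Vmn1r48, with a median of 3.76 that was the same with Vmn1r48 set to its bound. The heterozygous mean was under 1 CPM for 18 of the 25, and 14 had 10 or fewer counts over the 3 heterozygous libraries. None of the 25 overlapped between genotypes. Together they summed to 127 to 149 CPM in knockout and 17.3 to 26.9 CPM in heterozygous libraries at e18.5. Without them and Vmn2r96, the whole family still summed to 212 to 271 CPM in knockout and 98.6 to 179 CPM in heterozygous libraries. At e16.5 the same 25 genes summed to 30.7 to 43.4 CPM in knockout and 31.2 to 39.7 CPM in heterozygous libraries, which overlapped.

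**Figure D3:**
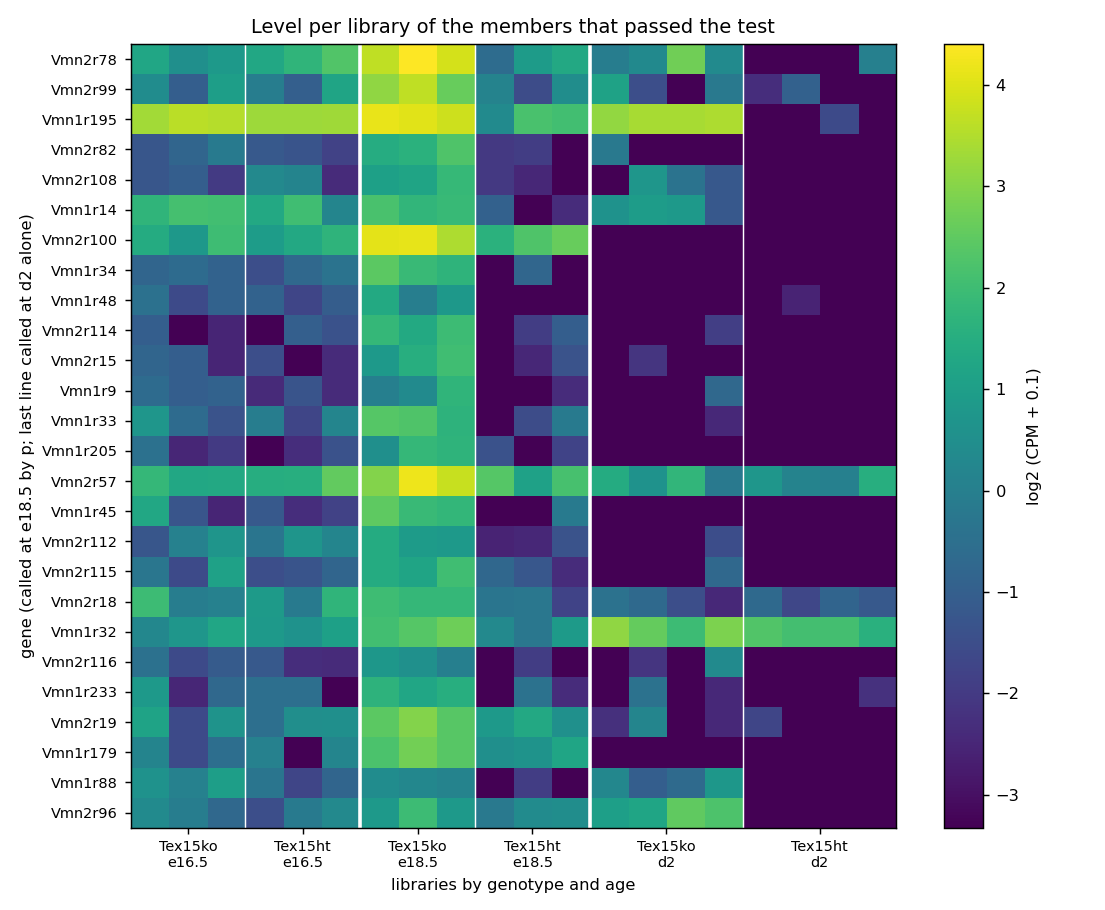
Level of the 26 members that passed the test at e18.5 or d2 (lines) in each of the 20 libraries (columns, Tex15ko left of Tex15ht within an age), as log2 (CPM + 0.1). The 3 Tex15ht columns at e18.5 are darker than the Tex15ko columns beside them, and Vmn1r195 stays bright in Tex15ko at d2, at 8.83 to 10.9 CPM, while Tex15ht lies at 0 to 0.234 CPM.

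Among the members that never passed the test, Vmn1r53, Vmn2r24 and Vmn2r118 had the highest mean CPM, not scaled to length, over the 20 libraries of all ages, an order that does not hold at each age. Vmn2r27, for one, averaged 8.77 ± 1.69 CPM in knockout and 3.54 ± 1.72 CPM in heterozygous libraries at e18.5 (SD, n = 3 each; adjusted p = 0.0955, edgeR), and was named after its values were seen. Vmn2r24 measured 12.9, 23.5 and 10.38 CPM in knockout and 7.65, 6.67 and 7.91 CPM in heterozygous libraries at e18.5, with no overlap, but missed the threshold (log2 fold change 1.07, SE 0.31, adjusted p = 0.0827, edgeR). Its adjusted p was 0.0388 with DESeq2, 0.0462 in edgeR with no filter on low counts, and 0.0438 in edgeR when knockout replicate 3 was left out, so that it passed in each of these. Vmn1r53 and Vmn2r118 overlapped between genotypes: Vmn1r53 averaged 8.25 ± 2.56 CPM in knockout and 4.49 ± 1.64 CPM in heterozygous libraries, and Vmn2r118 averaged 2.69 ± 1.41 CPM in knockout and 1.83 ± 0.737 CPM in heterozygous libraries (SD, n = 3 each).

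The count at e18.5 moved with the setting and the direction did not. DESeq2 called 35 members, 23 of them among the 25, and fitting all ages together called 6: Vmn1r14, Vmn1r195, Vmn1r32, Vmn1r34, Vmn2r78 and Vmn2r82. Leaving out heterozygous replicate 2 or knockout replicate 1 gave 16, and leaving out knockout replicate 3 gave 14. Vmn1r14, Vmn1r195, Vmn1r34, Vmn2r78 and Vmn2r82 passed under every setting tried.

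Other chemosensory genes at e18.5 were read beside the receptors. Among 209 tested olfactory receptor genes (symbols beginning with Olfr) 40 rose and 0 fell. Of 10 tested taste receptor genes 2 rose, Tas2r144 and Tas2r109, and 0 fell, while 0 of 3 trace amine receptors and 0 of 1 formyl peptide receptor passed. Taar4, the most counted of the trace amine receptors, averaged 4.28 ± 3.82 CPM in knockout and 3.21 ± 1.82 CPM in heterozygous libraries, and Fpr-rs3, a formyl peptide receptor, 2.09 ± 1.13 CPM in knockout and 2.05 ± 2.23 CPM in heterozygous libraries (SD, n = 3 each). Of the 10 genes of the vomeronasal MHC list 2 were tested and 0 passed. These were B2m, the light chain of MHC class I, at 54.1 ± 7.33 CPM in knockout and 54.9 ± 8.45 CPM in heterozygous libraries, and H2-M10.3, at 1.69 ± 0.596 CPM in knockout and 1.39 ± 1.16 CPM in heterozygous libraries (SD, n = 3 each).

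Of 26 tested genes of vomeronasal signalling and neurons, 0 rose and 1 fell, Reep1, which shapes the endoplasmic reticulum, at 36.1 ± 3.88 CPM in knockout and 63.9 ± 3.75 CPM in heterozygous libraries (SD, n = 3 each). Trpc2, the ion channel that defines vomeronasal neurons, had 0 counts in all 20 libraries. Gnao1 averaged 226 ± 27.7 CPM in knockout and 233 ± 22.4 CPM in heterozygous libraries, and Gnai2 28.9 ± 3.54 CPM in knockout and 28.3 ± 8.12 CPM in heterozygous libraries (SD, n = 3 each). The 10 markers of vomeronasal and olfactory sensory neurons summed to 48.7 to 55.3 CPM in knockout and 40.3 to 60.6 CPM in heterozygous libraries, and 0 of 7 tested passed. Adcy3, the adenylyl cyclase of olfactory neurons, averaged 16.0 ± 2.70 CPM in knockout and 17.7 ± 1.09 CPM in heterozygous libraries, and Stoml3 14.3 ± 0.456 CPM in knockout and 14.2 ± 8.25 CPM in heterozygous libraries (SD, n = 3 each). Of 20 tested regulators of vomeronasal neuron fate and chromatin, 1 rose: Cbx5, the heterochromatin protein HP1 alpha, at 716 ± 29.9 CPM in knockout and 417 ± 61.7 CPM in heterozygous libraries (SD, n = 3 each).

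Some markers of other cells also passed the test at this age. The list for macrophages and white blood cells held 8 markers, of which 6 were tested and 2 rose, Mrc1 and Adgre1, and it summed to 94.8 to 117 CPM in knockout and 35.1 to 50.7 CPM in heterozygous libraries, with none of the 8 at 0 throughout. Of 10 stroma markers 1 rose, Dcn, and the list summed to 342 to 356 CPM in knockout and 291 to 359 CPM in heterozygous libraries. Of the Sertoli cell markers 0 of 9 tested passed, of the Leydig cell markers 0 of 5, of the endothelial markers 0 of 6 and of the red blood cell markers 0 of 1. Star averaged 8.79 ± 1.21 CPM in knockout and 6.55 ± 2.37 CPM in heterozygous libraries, and Cdh5 45.4 ± 7.25 CPM in knockout and 41.9 ± 2.92 CPM in heterozygous libraries (SD, n = 3 each). Alas2 averaged 12.1 ± 2.39 CPM in knockout and 11.3 ± 2.37 CPM in heterozygous libraries (SD, n = 3 each), while the other 6 red blood cell markers had 0 counts in every library. The part of these markers in the receptor result was not tested.

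By position, 155 of the 156 genes matched a RefSeq gene, on 9 chromosomes, 153 of them protein-coding and 2 pseudogenes. Grouped into runs of receptor genes with starts less than 1 Mb apart, they fell into 22 runs, 14 of which held a gene that rose at e18.5. On chromosome 17, 20 of 29 members were tested and 8 rose, on chromosome 6 25 of 41 were tested and 8 rose, on chromosome 7 25 of 41 were tested and 4 rose, and on chromosome 13 only 2 of 20 were tested and both rose. In the chromosome 17 run from Vmn2r111 to Vmn2r117 all 4 tested members rose, the near copies Vmn2r112, Vmn2r114, Vmn2r115 and Vmn2r116, and in the chromosome 6 run from Vmn1r32 to Vmn1r39 all 3 tested members rose, Vmn1r32, Vmn1r33 and Vmn1r34. Of the 20 runs with a tested member, these and 3 with 1 or 2 tested members had every tested member called. In the 8 runs with 5 or more tested members 0 to 4 rose, 12 of 63 in all. They were 4 of 15 in the chromosome 17 run that starts at Vmn2r90, 1 of 10 in the chromosome 7 run that starts at Vmn2r-ps35, 2 of 9 in the chromosome 6 run that starts at Vmn1r4 and 0 of 5 in the chromosome 3 run that starts at Vmn2r-ps3, with 1 or 2 in each of the other 4. Whether the genes that rose cluster by position was not tested.

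The nearest genes outside the family were read beside them. Of 33 that flank the genes that rose at e18.5, 31 were tested, 2 rose and 0 fell. These were 4930557F10Rik (log2 fold change 1.70, adjusted p = 0.0063, edgeR), beyond the chromosome 13 run, and BC048671 (log2 fold change 2.44, adjusted p = 0.000725, edgeR), beyond a chromosome 6 run, both singled out after their values were seen. The treatment of reads with more than 1 match, and of strand, is not given in the sources used here. Of the members with a GENCODE transcript, 8 shared no 50-base stretch of the longest one with another Vmn transcript, and 5 shared more than 50% of them. The median share was 7.10%, against 8.10% among the 25 that rose. Values of close copies and of overlapping genes are uncertain to that extent, since they can share reads.

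**Figure D4:**
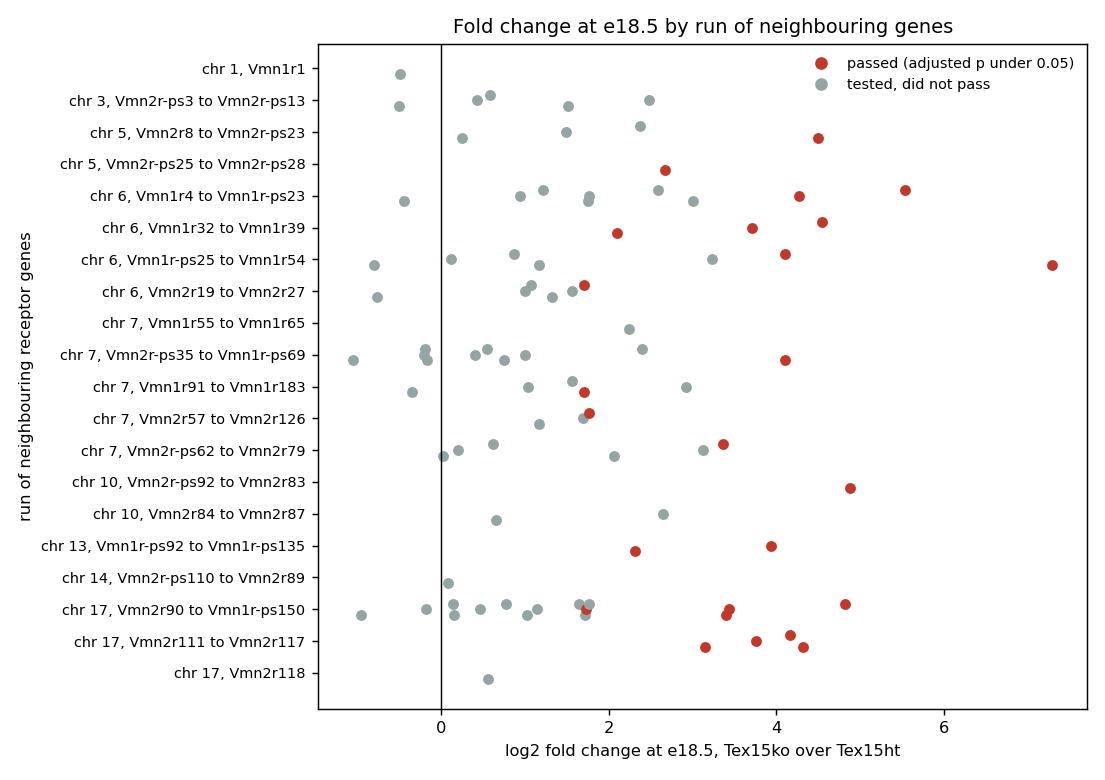
Log2 fold change at e18.5, Tex15ko over Tex15ht (horizontal axis), of each tested member, by run of neighbouring receptor genes in chromosome order (vertical axis), red where the gene passed the test. All 4 tested members of the run from Vmn2r111 to Vmn2r117 and all 3 of the run from Vmn1r32 to Vmn1r39 are red, and no red point lies below 0.

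At d2 Vmn1r195 and Vmn2r96 were high in knockout libraries. Of 9 members tested, these 2 rose and 0 fell, where 2.03% of all 15343 genes rose and 0.776% fell. The median log2 fold change over the 9 was 0.37, and -0.02 over all genes. Vmn1r195 and Vmn2r96 passed the filter on low counts through their knockout counts alone, so this share and median describe the selected genes and support nothing on the family. The sum of 20 was reached at d2 by the heterozygous libraries alone for 15 members, of which 7 were tested and 0 rose or fell, the knockout mean was higher for 8 and lower for 7, and all knockout libraries lay above all heterozygous ones for 1. Of the 156 members, 57 had 0 counts in the knockout group, 77 in the heterozygous group and 38 in both. Knockout libraries lay above all heterozygous libraries for 8 of the 118 members with a count at d2 and below for 0. Over all 21850 genes with a count the shares were 4.44% and 3.53%. The 8 were Vmn1r14, Vmn1r194, Vmn1r195, Vmn1r53, Vmn1r88, Vmn2r72, Vmn2r79 and Vmn2r96.

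Vmn1r195 measured 8.83, 10.31, 10.35 and 10.9 CPM in knockout libraries at d2, and 0, 0, 0.234 and 0 CPM in heterozygous libraries. The heterozygous group held 2 counts in all, which gives a ratio of 208 with a 95% counting interval of 57.1 to 1721 (adjusted p = 1.5e-06, edgeR). Vmn2r96 measured 1.96, 2.22, 5.57 and 4.66 CPM in knockout libraries and 0 in each heterozygous library, at least 49.8-fold higher against the floor of 3 counts over the group (adjusted p = 0.000342, edgeR). Neither gene overlapped between genotypes. The library labelled Tex15ko-d2 replicate 2 held 10.31 CPM of Vmn1r195 and 2.22 CPM of Vmn2r96, and both genes passed without it, with edgeR adjusted p of 9.8e-06 for Vmn1r195 and 0.000996 for Vmn2r96. At e16.5 Vmn2r96 measured 1.18, 0.864 and 0.513 CPM in knockout and 0.262, 0.814 and 1.14 CPM in heterozygous libraries, which overlapped, and at e18.5 1.67, 3.85 and 1.72 CPM in knockout and 0.779, 1.22 and 1.27 CPM in heterozygous libraries, which did not overlap but did not pass the test (adjusted p = 0.511, edgeR).

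Without the filter on low counts 4 members rose and 0 fell at d2, where 1.7% of all genes rose. The added pair were Vmn1r14, at 1.42, 1.83, 1.72 and 0.339 CPM in knockout libraries and 0 in each heterozygous library, at least 16.6-fold higher, and Vmn1r88, also at 0 in heterozygous libraries. DESeq2 called 5 members, and fitting all ages together called 7. Vmn1r53, which did not pass, measured 4.69, 4.57, 8.22 and 4.91 CPM in knockout and 4.14, 2.40, 3.62 and 1.40 CPM in heterozygous libraries (adjusted p = 0.298, edgeR). Vmn2r118 measured 5.89, 1.83, 4.38 and 7.28 CPM in knockout and 8.29, 5.37, 5.02 and 9.43 CPM in heterozygous libraries, which overlapped. Without Vmn1r195 and Vmn2r96, the family summed to 50.5 to 58.5 CPM in knockout and 23.8 to 47.6 CPM in heterozygous libraries. Without every gene that passed at e18.5 or d2, the sums overlapped, at 35.5 to 41.6 CPM in knockout and 17.96 to 40.5 CPM in heterozygous libraries.

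Beside this, 4 of 21 tested olfactory receptor genes rose at d2, Olfr792, Olfr559, Olfr701 and Olfr417, named after their values were seen, and 0 of 5 taste receptor genes passed. No vomeronasal signalling gene passed among 20 tested, and Cbx5 was again higher, at 500 ± 75.2 CPM in knockout and 329 ± 18.9 CPM in heterozygous libraries (SD, n = 4 each; adjusted p = 0.00775, edgeR). Of 10 stroma markers 1 rose, Igf1, and the list summed to 331 to 456 CPM in knockout and 202 to 297 CPM in heterozygous libraries, with none of the 10 at 0 throughout. Of 8 tested Sertoli markers 1 fell, Sox9, and of 10 germ cell markers 1 rose, Dazl. The part of these markers in the receptor result was not tested.

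**Figure D5:**
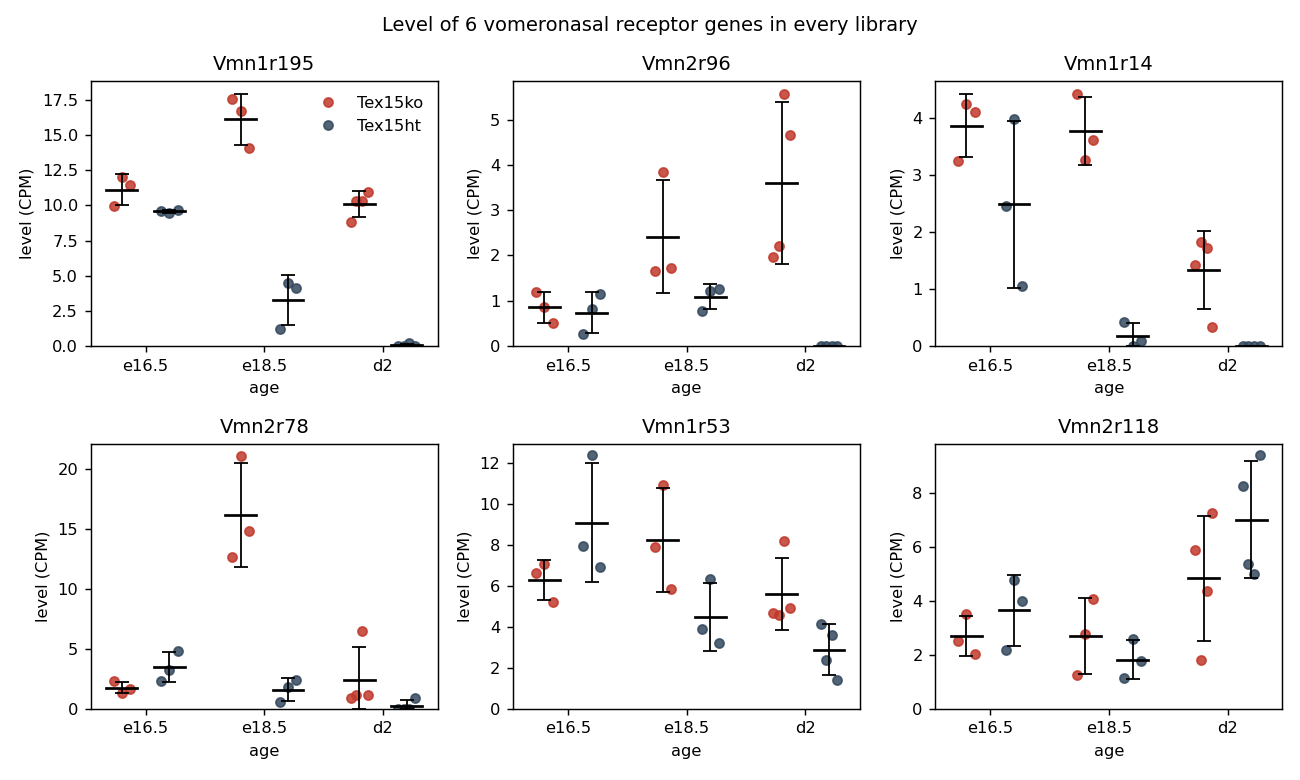
Level (CPM, vertical axes from 0) of 6 members in every library (points) with the mean and SD (bars, cut at 0), by age, Tex15ko left of Tex15ht. Vmn1r195 stays at 8.83 CPM or more in every Tex15ko library, while Tex15ht libraries stand at 9.46 to 9.70 CPM at e16.5, 1.20 to 4.47 CPM at e18.5 and 0 to 0.234 CPM at d2; Vmn2r118 overlaps at each age.

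Whether the knockout effect itself differed between ages was tested in 1 fit of all 20 libraries, with 92 members. Between e16.5 and e18.5 the effect of 0 members differed, where 0.0645% of all 18619 genes had a larger and 0.0322% a smaller log2 fold change at e18.5. An unadjusted p under 0.05 was reached by 20 of the 92 members in this edgeR test, all 20 with the larger effect at e18.5. Nearly all members entered through e18.5 counts, which favours that direction, and the share of all genes at this unadjusted p is not given here. DESeq2 was not run on this contrast. The e18.5 effects of single genes were thus not shown to differ from those at e16.5. Between e18.5 and d2 the effect was larger at d2 for 2 members, Vmn1r195 (difference in log2 fold change 5.05, SE 0.78, edgeR adjusted p = 0.00081) and Vmn2r96 (7.12, SE 1.35, adjusted p = 0.0124), and smaller for 0 (0.354% and 0.172% of all genes). Between e16.5 and d2 it was larger at d2 for 3 and smaller for 0 (0.709% and 0.0913% of all genes): Vmn1r195 (7.13, SE 0.74, adjusted p = 4.2e-07, edgeR), Vmn2r96 (8.02, SE 1.36, adjusted p = 0.00165) and Vmn1r14 (6.14, SE 1.44, adjusted p = 0.0386). Without the library labelled Tex15ko-d2 replicate 2, Vmn1r14 no longer passed (edgeR adjusted p = 0.0600) and the other 2 still did. The fitted sizes for Vmn2r96 and Vmn1r14 rest on 0 heterozygous counts at d2 and are no bounds.

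Changes with age within a genotype were read in the same fit. Members entered on e18.5 and d2 counts and nearly all through e18.5, so the counts that follow are a description in which a peak at e18.5 was partly chosen, and age and table cannot be told apart. In knockout cells, 35 of 92 members were higher at e18.5 than at e16.5 and 0 lower (17.5% and 17.7% of all genes). In heterozygous cells 7 passed, 3 higher and 4 lower (17.8% of all genes passed in either direction). From e18.5 to d2, 0 members were higher and 66 lower in knockout cells (25.3% and 29.7% of all genes), and 2 were higher and 60 lower in heterozygous cells (24.1% and 27% of all genes). Without the library labelled Tex15ko-d2 replicate 2, 1 was higher and 73 lower at d2 in knockout cells. The share of all genes in that fit is not given here, so the step from 66 to 73 cannot be read as particular to these genes.

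The genes with the smallest p among the e18.5 increases of knockout cells were Vmn2r100, Vmn2r57, Vmn2r1 and Vmn2r78. Vmn2r100 measured 2.60, 1.65 and 3.88 CPM at e16.5, 16.8, 17.4 and 10.7 CPM at e18.5 and 0 in each library at d2 in knockout cells. In heterozygous cells it measured 1.83, 2.44 and 3.14 CPM at e16.5, 2.97, 4.72 and 5.96 CPM at e18.5 and 0 at d2. It was thus at least 180-fold lower at d2 than at e18.5 in knockout cells and at least 59.9-fold lower in heterozygous cells, against the floor of 3 counts over the d2 group. Vmn2r24, Vmn1r181 and Vmn1r179 came next among the d2 decreases of knockout cells, and Vmn1r195, Vmn2r24 and Vmn2r124 were among those with the smallest p in heterozygous cells. Vmn2r24 averaged 0.234 ± 0.104 CPM in knockout and 0.288 ± 0.432 CPM in heterozygous libraries at d2 (SD, n = 4 each).

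In heterozygous cells Vmn1r14, Vmn1r195, Vmn1r53 and Vmn2r112 were lower at e18.5 than at e16.5, and Vmn1r18, Vmn2r1 and Vmn2r110 were higher. Vmn1r195 averaged 9.59 ± 0.122 CPM at e16.5, 3.26 ± 1.79 CPM at e18.5 (SD, n = 3 each) and 0.0584 ± 0.117 CPM at d2 (SD, n = 4) in heterozygous libraries, and both steps passed (adjusted p = 0.00316 and 5.9e-08, edgeR). In knockout libraries it averaged 11.1 ± 1.07 CPM at e16.5, 16.1 ± 1.82 CPM at e18.5 (SD, n = 3 each) and 10.102 ± 0.892 CPM at d2 (SD, n = 4). Vmn1r32 and Vmn2r118 were higher at d2 than at e18.5 in heterozygous cells. Vmn1r32 measured 8.61, 5.87, 3.85 and 7.20 CPM in knockout and 4.87, 4.17, 4.20 and 2.91 CPM in heterozygous libraries at d2, where the genotypes overlapped, whereas they were apart at e18.5. Vmn2r1, a co-receptor gene, was also still counted at d2, at 4.36, 1.70, 4.11 and 3.56 CPM in knockout and 1.14, 3.11, 3.74 and 3.38 CPM in heterozygous libraries.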

How the data were processed

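RNA sequencing counts of flow-sorted male mouse germ cells were used as deposited: 1 table per age, with raw counts per gene symbol in the 20 libraries. The authors made these counts with tools that, per the submitters' processing notes, include STAR, Bowtie, featureCounts and edgeR on mm9; versions, order and settings are not given in the sources used here. Rows of repeat families were used only in the alternative that scales genes and repeats together, and 3 tables on repeats were not used.

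Each age was fitted alone across all gene rows with edgeR 4.0.16 (R 4.3.3, limma 3.58.1): filterByExpr (10 counts minimum, 15 in total), TMM scaling, robust quasi-likelihood test, Benjamini-Hochberg adjusted p under 0.05 over all genes tested. Differences between ages came from 1 fit of 20 libraries on 23853 shared symbols. The fits were also run on simulated data with changes of known size. The share of those changes recovered is not given here, so this run is no measure of sensitivity. Genes were selected and named by a rule on summed counts, calls and mean levels, and the members and gene lists were chosen with earlier results of these data known. The rule names every gene that passed between genotypes, the 5 with the highest mean level, the 3 highest that never passed, up to 4 per contrast of ages, those at the threshold of 20 counts, and the called members of each list or up to 2 of its most counted ones; other names were added after values were seen. CPM used TMM-scaled gene totals. SDs are over libraries, counting intervals are exact binomial (95%), and no library was imputed or dropped in the values reported unless said.

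Positions, promoters and transcripts came from RefSeq GRCm38.p6 and GENCODE tables matched by symbol (Python 3.11.15, pandas 2.3.3, Biopython 1.88), not converted to mm9. Alternatives were DESeq2 1.42.0, median-ratio scaling, no filter or a filter at 1 CPM, genes and repeats scaled together, all ages in 1 fit, a replicate block, and each library left out in turn.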

Additional observations from a re-analysis of the deposited data

Results flagged for a closer look

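Of the groups of 4 libraries at d2, 28 sets of values were examined for a library far from the other 3, which chance alone gives in about 1 of 20 groups, and 3 sets held one. Tex15 stood at 104 CPM in the library labelled Tex15ko-d2 replicate 2 and at 2.07 to 2.62 CPM in the other knockout libraries. Vmn1r53 stood at 8.22 CPM in knockout replicate 3 and at 4.57 to 4.91 CPM in the other knockout libraries of that age. Vmn1r195 stood at 0.234 CPM in heterozygous replicate 3 and at 0 in the other heterozygous libraries, which rests on 2 counts. A set with counts in only 1 library is always flagged, however low they are, so the rate of 1 of 20 does not apply to it.

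The effect of the knockout on 3 genes differed between ages in the test of the difference itself. The log2 fold change, knockout over heterozygous, of Vmn1r195 was larger at d2 than at e18.5 by 5.05 (adjusted p = 0.00081, edgeR) and larger at d2 than at e16.5 by 7.13 (adjusted p = 4.2e-07, edgeR). That of Vmn2r96 was larger at d2 by 7.12 against e18.5 (adjusted p = 0.0124, edgeR) and by 8.02 against e16.5 (adjusted p = 0.00165, edgeR). That of Vmn1r14 was larger at d2 than at e16.5 by 6.14 (adjusted p = 0.0386, edgeR), and without the library labelled Tex15ko-d2 replicate 2 it no longer passed (adjusted p = 0.0600, edgeR). The sizes for Vmn2r96 and Vmn1r14 rest on 0 heterozygous counts at d2 and are no bounds. The causes were not tested.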

How the results depend on the processing

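The direction of the e18.5 result was kept in every setting tried, with 0 members that fell, while its count of 25 moved. It was 6 with all ages in 1 fit and ran from 14 to 31 when 1 library was left out: 14 without knockout replicate 3, and 16 without knockout replicate 1 or without heterozygous replicate 2. DESeq2, the other scalings, filters and the replicate block gave 22 to 35. Of the 25 genes, 5 passed in all settings and 9 in all that leave out 1 library. At d2 the count of 2 was 5 with DESeq2, 4 with no filter, 7 with all ages in 1 fit, and 2 to 4 when 1 library was left out (4 without heterozygous replicate 4), and both genes passed in all settings. At e16.5 it was 0 in all settings. Tex15 had a log2 fold change of -8.80 at e16.5 with all ages in 1 fit (adjusted p = 0.221, edgeR). At d2 it had -4.97 (adjusted p = 0.167, edgeR), -4.93 with DESeq2 (adjusted p = 0.00576), -4.97 with all ages in 1 fit (adjusted p = 0.0105, edgeR), and -8.45 to -4.56 when 1 library was left out (-8.45 without knockout replicate 2, adjusted p = 3.1e-14, edgeR). Of values that never passed, those at e16.5 of Vmn2r24 ran from -0.48 to 0.026 and of Vmn2r57 from -0.63 to 0.011 when 1 library was left out, above 0 without heterozygous replicate 3. Causes were not tested.

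Whether replicate numbers pair the libraries was not settled. Same-numbered libraries of both genotypes had deviations correlated at -0.30 to 0.11 (e16.5), 0.054 to 0.12 (e18.5) and -0.21 to 0.079 (d2). At e18.5 all 3 knockout libraries correlated best with their own number, against 1 of 3 at e16.5 and 1 of 4 at d2. With a replicate block, 28 members passed at e18.5, and the counts of 0 at e16.5 and 2 at d2 did not move. Low counts limit the rest, since 69 members at e18.5 were untested.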
